A study of Mus musculus with 4 samples.

Results

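The chemokine ligand genes *Ccl1*, *Ccl3*, *Ccl5*, *Ccl17*, *Cxcl9* and *Cx3cl1* are described here in group 3 innate lymphoid cells (ILC3s) sorted from the large intestine. They were taken by gene symbol from the authors' deposited comparison table, and all 6 were found once among its 2179 genes. ILC3s were purified by flow cytometry as lineage-negative GFP-positive lamina propria lymphocytes from littermate Rag1-/- mice with a GFP reporter allele, 3 days after a dose of 1 µg of α-DR3 (clone 4C12) or after PBS. α-DR3 is an agonistic antibody against the TNF receptor family member DR3. All mice of both groups lacked Rag1, and so mature T and B cells, and carried 1 copy of the GFP reporter allele, which marks ILC3s. The mice were on a C57BL/6 background, their age was given in the study's methods only as a range for all in vivo work, and each library came from the pooled cells of several animals, with 2 libraries per group.

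All 6 genes had a higher mean in ILC3s from α-DR3-treated mice, and 5 of them were higher by at least 1.5-fold. *Ccl17* had the largest ratio of the 6, *Cx3cl1* had the largest difference in FPKM, and *Ccl3* was the one gene of the 6 under the 1.5-fold limit. Of all genes in the table, 32.1% were higher by at least 1.5-fold on the same scale, and 54.6% had a higher mean by any amount. Of the genes past 1.5-fold in either direction 51.3% were higher, and this share was 28.6% or 22.9% after the α-DR3 means had been divided by the median ratio or by the ratio of the sums of all genes. The table had been selected by the authors on this same comparison, because each of its genes has a p-value below 0.05 there, so that a place in it is already a statement about a difference. The ratios are therefore given as a description and no test was run on them. The table holds a mean for each group, and values of single libraries, which the study gives in its supplement, were not used here. From the means alone a ratio carried by 1 library cannot be told apart from one shared by both.

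Chemokines are small secreted proteins that attract leukocytes by binding G-protein-coupled receptors, and they are sorted into families by the spacing of the first cysteines of the mature protein. In CC chemokines these cysteines are adjacent, in CXC chemokines 1 residue lies between them, and in the CX3C chemokine there are 3. ILC3s sit in the lamina propria and in cryptopatches, where they exchange signals with myeloid cells, stroma and epithelium. DR3, the receptor of the cytokine TL1A, signals to NF-κB and to MAP kinases, and both of these pathways are known for inducing chemokine genes in many cell types.

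The coding stretches around these cysteine codons are shown for 5 of the genes, because they separate CC ligands from *Cxcl9* and *Cx3cl1*. They were read from the GENCODE M21 principal transcripts, 5′ to 3′ on the coding strand, with 15 bases on each side and the cysteine codons in capitals.
*Ccl1*, codons 33 and 34: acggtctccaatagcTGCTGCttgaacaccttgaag
*Ccl5*, codons 33 and 34: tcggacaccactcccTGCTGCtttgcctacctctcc
*Ccl17*, codons 43 and 44: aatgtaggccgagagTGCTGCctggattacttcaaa
*Cxcl9*, codons 30 and 32: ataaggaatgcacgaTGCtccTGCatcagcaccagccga
*Cx3cl1*, codons 32 and 36: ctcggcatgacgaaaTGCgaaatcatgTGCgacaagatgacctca
The same TGCTGC pair stands in the 3 CC ligands shown, while the flanking bases differ between them. The coding part before the stop codon had 92 codons in *Ccl1* and *Ccl3*, 91 in *Ccl5*, 103 in *Ccl17* and 126 in *Cxcl9*. It had 395 codons in *Cx3cl1*, whose product carries the chemokine domain on a mucin stalk with a membrane anchor. None of the 50-base stretches of the *Ccl1*, *Ccl3*, *Ccl5*, *Ccl17* and *Cx3cl1* transcripts occurred in a transcript of another gene on either strand, where 50 bases is the read length of the study. For *Cxcl9* this was so except for 14 of 2840 stretches (0.493%).

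*Ccl17* (ENSMUSG00000031780.1; chromosome 8 of GRCm38, 94810453 to 94812036, 3 exons) encodes a ligand of CCR4, a receptor found on T helper 2 and regulatory T cells, and is best known as a product of dendritic cells. Its authors' mean was 2.22 FPKM in PBS and 37.1 FPKM in α-DR3, where FPKM means fragments counted for a gene after scaling to transcript length and library total. The ratio of these means was 16.7-fold, and the log2 ratio was 3.56 after 1 FPKM had been added to each mean, which lowers the ratio of weakly expressed genes. In the order of log2 ratios it was number 2 of the 2179 genes. By its level it went from place 1768 in PBS to place 465 in α-DR3.

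*Ccl1* (ENSMUSG00000020702.6; chromosome 11, 82176657 to 82305690) encodes the ligand of CCR8, a receptor of regulatory T cells and type 2 lymphocytes. The authors' means were 1.15 FPKM in PBS and 10.4 FPKM in α-DR3, a 9.12-fold ratio and a log2 ratio of 2.42. This gene was number 27 of all genes by log2 ratio and was the most weakly expressed of the 6 ligands in either group. Its mean over all libraries was 2.87 CPM, a unit scaled to the library but not to length, so the ratio of *Ccl1* rests on fewer fragments than that of any other of the 6 ligands. The coding transcripts of *Ccl1* end at 82179812, and the rest of the annotated gene is due to a noncoding transcript that spans 129034 bases.

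*Cxcl9* (ENSMUSG00000029417.7; chromosome 5, 92321347 to 92328079, 4 exons) encodes a ligand of CXCR3 and is a classical target of interferon-γ. Its authors' mean was 2.5 FPKM in PBS and 10.9 FPKM in α-DR3, which is a 4.36-fold ratio and a log2 ratio of 1.76. The gene was number 62 by log2 ratio. *Cxcl10*, the gene of another CXCR3 ligand that lies 18.6 kb away, had a far higher mean of 311 FPKM in PBS and 407 FPKM in α-DR3, with a log2 ratio of only 0.39.

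*Cx3cl1* (ENSMUSG00000031778.6; chromosome 8, 94772009 to 94782427, 3 exons in the principal transcript) encodes fractalkine, the membrane-bound ligand of CX3CR1, which is carried by monocytes, macrophages and other leukocytes. The authors' means were 47.7 FPKM in PBS and 154 FPKM in α-DR3. This was the largest difference among the 6 ligands, 106 FPKM, with a 3.22-fold ratio and a log2 ratio of 1.67. By log2 ratio it was number 82 of all genes. With 318.6 CPM over all libraries, *Cx3cl1* rests on the most fragments of the 6.

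*Ccl5* and *Ccl3* encode inflammatory CC chemokines that share the receptor CCR1. *Ccl5* (ENSMUSG00000035042.2; chromosome 11, 83525778 to 83530518, 3 exons), also a product of cytotoxic lymphocytes, had an authors' mean of 9.19 FPKM in PBS and 24.0 FPKM in α-DR3, a 2.61-fold ratio and a log2 ratio of 1.29. *Ccl3* (ENSMUSG00000000982.5; chromosome 11, 83647844 to 83649355, 3 exons) had 110.0 FPKM in PBS and 159 FPKM in α-DR3, a 1.45-fold ratio and a log2 ratio of 0.53. They were number 163 and number 798 by log2 ratio. The gene with the highest level of the 6 in PBS was thus the one with the smallest ratio. In bulk libraries a larger share of cells with a transcript and more transcript per cell cannot be told apart, which holds for each of these ligands.

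**Figure D1:**
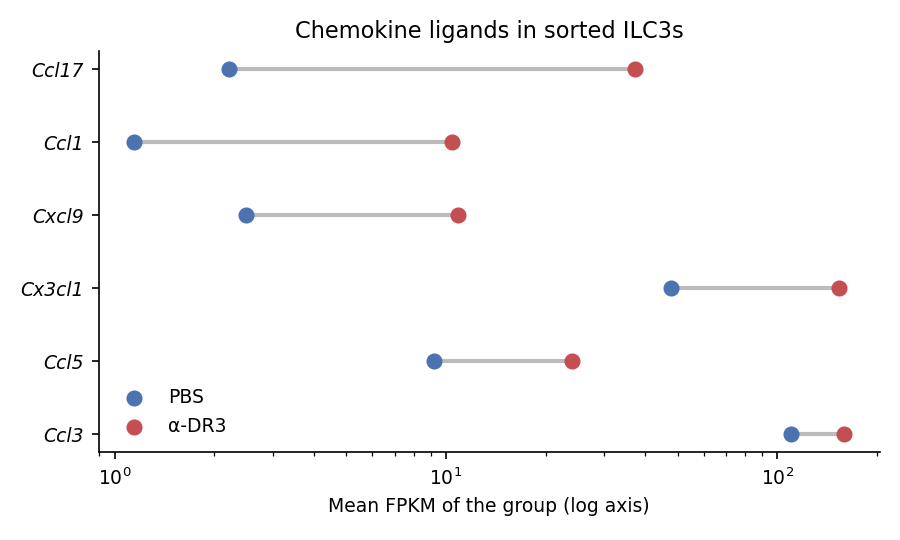
The authors' mean FPKM of the PBS group (blue) and of the α-DR3 group (red) is plotted on a log axis for each of the 6 ligands, ordered by log2 ratio, with a grey line joining both means. All red points lie to the right of the blue ones, from a 1.45-fold ratio for *Ccl3* to 16.7-fold for *Ccl17*; each point is a mean of 2 libraries, with no error bar.

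The levels of the 6 genes lay closer together in α-DR3 than in PBS. In PBS the order per length was *Ccl3*, *Cx3cl1*, *Ccl5*, *Cxcl9*, *Ccl17* and *Ccl1*, and the first was 96.1 times the last. In α-DR3 it was *Ccl3*, *Cx3cl1*, *Ccl17*, *Ccl5*, *Cxcl9* and *Ccl1*, and the first was 15.2 times the last. *Ccl17* moved ahead of *Ccl5* and *Cxcl9*, and the order of the other 5 among themselves was kept. Because no spread was computed, it is not known which neighbours in these orders differ beyond their error. Summed over the 6 ligands, the authors' means were 172.8 FPKM in PBS and 395 FPKM in α-DR3, a 2.29-fold ratio. *Ccl3* and *Cx3cl1* together made up 91.3% of this sum in PBS and 79.2% in α-DR3, while the part of *Ccl17* was 1.28% in PBS and 9.38% in α-DR3.

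**Figure D2:**
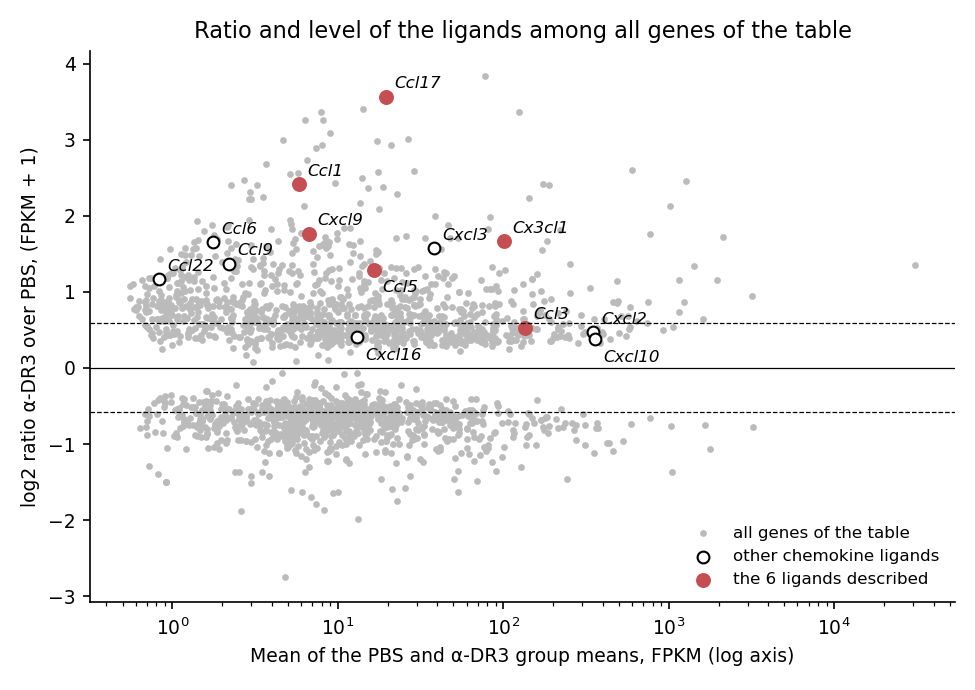
Each point is a gene of the table, with the mean of both group means on a log axis in FPKM and the log2 ratio of (FPKM + 1) in α-DR3 over PBS; dashed lines mark 1.5-fold. Of the 6 ligands (red), *Ccl17* lies near the top at 3.56 and *Ccl3* just under the line at 0.53.

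Levels of different genes can be compared only per length, so the length behind each FPKM value was checked. The ratio of mean CPM to mean FPKM gives the number of bases that the quantification used. For all 6 ligands it was between 94.4% and 98.1% of the GENCODE principal transcript, which measures 514 bases for *Ccl1* and *Ccl17*, 532 for *Ccl5*, 766 for *Ccl3*, 2889 for *Cxcl9* and 3315 for *Cx3cl1*. The lengths printed in the table itself were longer for 4 of these genes, with 2853 bases for *Ccl1*, 1200 for *Ccl5*, 5320 for *Cxcl9* and 4491 for *Cx3cl1*. The FPKM values therefore followed the short coding transcripts and not the listed gene lengths. For *Ccl1* the fragments per FPKM correspond to 495 bases, close to its coding transcript and far from the 2126 exonic bases of the long noncoding transcript.

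**Figure D3:**
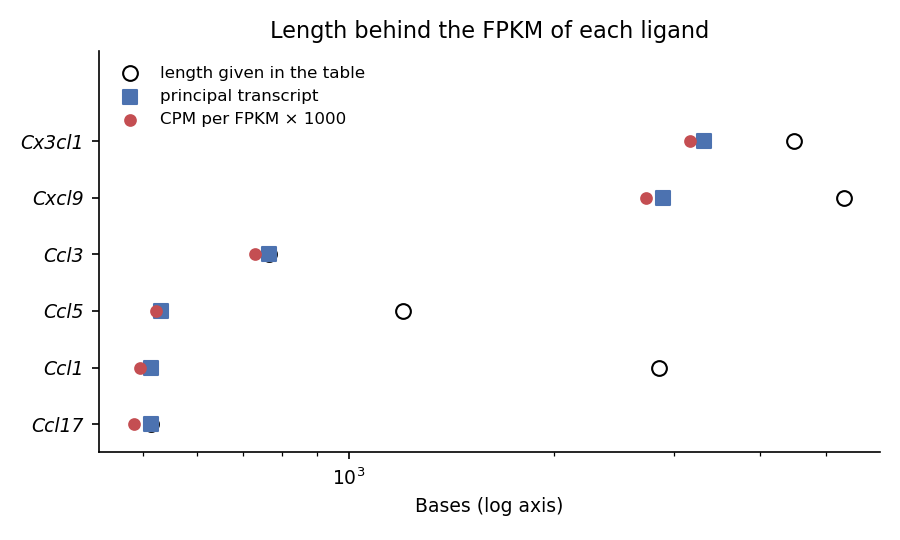
For each ligand the length given in the table (open circles), the length of the GENCODE principal transcript (blue squares) and 1000 times the mean CPM per mean FPKM (red) are plotted in bases on a log axis. The red points sit at 94.4% to 98.1% of the squares, whereas the open circle of *Ccl1* lies at 2853 bases against a transcript of 514.

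Of 38 chemokine ligand genes looked up, 13 had values, 7 of them besides the 6 described, and all 13 had a higher mean in α-DR3, against 54.6% of all genes. Of the other 7, 4 were higher by at least 1.5-fold, against 32.1% of all genes. *Cxcl3*, the gene of a neutrophil attractant, had 18.6 FPKM in PBS and 57.2 FPKM in α-DR3, a log2 ratio of 1.57. *Ccl6* had 0.335 FPKM in PBS and 3.2 in α-DR3, *Ccl9* had 0.780 and 3.61, and *Ccl22*, whose product is the other CCR4 ligand, had 0.130 and 1.54. With PBS means under 1 FPKM, these 3 genes could enter the table only through a higher α-DR3 mean, because the larger group mean was at least 1.005 FPKM for every gene listed. Their direction was thus fixed in the counts above. Without them, *Cxcl3* alone of the ligands besides the 6 was past 1.5-fold.

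The other 3 had a higher level or a small ratio. *Cxcl2*, another neutrophil attractant, had 291 FPKM in PBS and 405 FPKM in α-DR3 with a log2 ratio of 0.47, and *Cxcl16* had 11.1 and 15.1 FPKM with a log2 ratio of 0.41. After division of the α-DR3 means by the ratio of the summed FPKM of both groups, the log2 ratios of *Cxcl2*, *Cxcl16* and *Cxcl10* were -0.02, -0.05 and -0.11, so that 10 of the 13 ligands remained higher. The 6 ligands described stayed higher after this division too, although *Ccl3* did so by only 0.04. The ratio of sums, 1.41, is raised by *Il22*, which had 17424 FPKM in PBS and 44537 FPKM in α-DR3, a 2.56-fold ratio. They made up 21.4% of the summed FPKM of the 13 ligands in PBS and 30.7% in α-DR3.

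Several of these ligands are neighbours in the genome. On chromosome 8, *Ccl22*, *Cx3cl1* and *Ccl17* follow each other on the plus strand, with 20.3 kb between the first pair and 28.0 kb between the second. Their log2 ratios were 1.17, 1.67 and 3.56, and no other of the 11 coding genes of this region, counted with 100 kb on each side, had a value. On chromosome 11, *Ccl5*, *Ccl9*, *Ccl6* and *Ccl3* lie in this order on the minus strand within a stretch that holds 117 kb between *Ccl5* and *Ccl3*. Their log2 ratios were 1.29, 1.37, 1.65 and 0.53, and they were the 4 genes with values of 14 coding genes there. In both clusters a gene with a PBS mean under 1 FPKM lay beside one of far higher level.

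**Figure D4:**
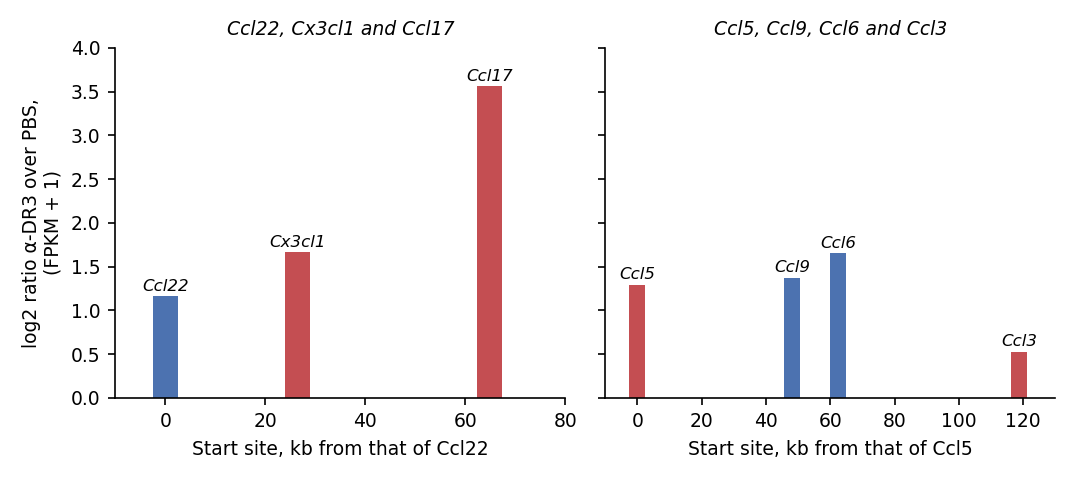
The log2 ratio of (FPKM + 1) in α-DR3 over PBS is drawn as bars from 0 at the start site of each chemokine gene with a value, in kb from the first gene of the cluster on chromosome 8 (left) and chromosome 11 (right); red bars are ligands of the 6 and blue bars are other ligands. *Ccl17* has the tallest bar at 3.56 and *Ccl3* the shortest at 0.53.

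Upstream sequence was available from RefSeq (GRCm38.p6) for 5 of the 6 genes, and the 250 bases before the RefSeq start site were searched on both strands for 3 motifs. The *Cx3cl1* window, 94771930 to 94772179, reaches past the GENCODE start of the gene into its first exon, so for this gene it is only partly upstream sequence. The NF-κB consensus motif, which 7.25% of 32841 such windows hold, was found in *Ccl1* alone of the 5, as 2 overlapping matches 196 to 186 bases before the start. The STAT motif TTCNNNGAA, held by 7.02% of windows, was found in *Ccl17* alone, 99 to 91 bases before the start. The AP-1 motif TGANTCA, held by 6.75%, was in none of the 5 windows, that of *Cx3cl1* included. A match is a run of letters and not a shown binding site, and the lack of one says nothing of sites elsewhere. The windows of the 2 genes with the largest ratios are shown, in gene orientation, with the matches in capitals.
*Ccl1*, chr11:82179813-82180062, minus strand: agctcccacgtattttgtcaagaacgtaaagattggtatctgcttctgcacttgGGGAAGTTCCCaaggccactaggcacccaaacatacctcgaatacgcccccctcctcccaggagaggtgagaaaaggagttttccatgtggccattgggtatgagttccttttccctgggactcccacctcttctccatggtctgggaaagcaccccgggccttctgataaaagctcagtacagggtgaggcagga
*Ccl17*, chr8:94810203-94810452, plus strand: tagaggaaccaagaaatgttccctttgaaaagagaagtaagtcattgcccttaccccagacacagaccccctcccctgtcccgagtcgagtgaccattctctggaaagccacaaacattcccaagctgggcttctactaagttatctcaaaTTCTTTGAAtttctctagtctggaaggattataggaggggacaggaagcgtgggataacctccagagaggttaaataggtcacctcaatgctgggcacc

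The receptors of the 6 ligands were looked up in the same cells. Of 7 such genes, *Ccr8* and *Cxcr3* had values, and the other 5, among them *Ccr4* and *Cx3cr1*, were not analysed here. *Ccr8*, the receptor gene for *Ccl1*, had 7.58 FPKM in PBS and 21.1 FPKM in α-DR3, a log2 ratio of 1.36. *Cxcr3*, the receptor gene for *Cxcl9*, had 32.3 FPKM in PBS and 10.0 FPKM in α-DR3, a log2 ratio of -1.60, where 30.4% of all genes were lower by at least 1.5-fold. Ligand and receptor means thus lay in the same direction for the first pair and in opposite directions for the second. Of 16 other chemokine receptor genes, 4 had values. *Ccr7*, *Ccr6* and *Cxcr5* were higher, with log2 ratios of 2.42, 1.19 and 0.68, and *Ccr9* was lower with -1.79. *Cxcr5* was under the 1.5-fold limit after both rescalings, with 0.35 and 0.20.

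Of 27 genes of NF-κB factors and their feedback regulators, 12 had values, and 10 of these were higher and 2 lower in α-DR3, with a median log2 ratio of 0.64 against 0.36 for all genes. At least 1.5-fold higher were 8 of the 12, against 32.1% of all genes. After division by the median ratio 3 of the 12 were so, against 17.6% of all genes, and after division by the ratio of sums 2 of the 12, against 13.4%. *Tnip3*, whose product restrains NF-κB, had 0.990 FPKM in PBS and 13.8 FPKM in α-DR3 (log2 ratio 2.89), and with a PBS mean under 1 FPKM it could be listed only with a higher α-DR3 mean. *Traf1* had 438 and 700.1 FPKM (0.68) and *Traf3* 12.9 and 30.6 FPKM (1.18). *Nfkbid* and *Birc3* were the lower ones, with log2 ratios of -1.11 and -0.67. Of 23 interferon-γ target genes, a list that includes *Cxcl9* and *Cxcl10*, 14 had values. Without *Cxcl9*, 12 of 13 were higher, with a median log2 ratio of 0.53, and 6 of these were higher by at least 1.5-fold, against 54.6% and 32.1% of all genes. With *Cxcl9*, 13 of 14 were higher, and 9 of 14 after division by the ratio of sums. The number past 1.5-fold, 7 of 14 as deposited, was 5 after division by the median ratio, against 17.6% of all genes, and 4 after division by the ratio of sums, against 13.4%, and after either division 1 gene was lower by at least 1.5-fold. *Socs1*, the gene of an inhibitor of cytokine signaling, had 63.1 FPKM in PBS and 115 FPKM in α-DR3 (0.85), and *Ciita*, the master regulator of MHC class II, had 1.47 and 5.30 FPKM (1.35).

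The label of the sorted cells was compared with marker genes. Of 19 ILC3 markers, 12 had values, among them *Il22* with 17424 FPKM in PBS, and 11 were higher and 1 was lower in α-DR3, against 54.6% of all genes higher. After either rescaling 10 of the 12 were higher. The number higher by at least 1.5-fold was 9 of 12 as deposited, 4 after division by the median ratio and 3 after division by the ratio of sums, against 32.1%, 17.6% and 13.4% of all genes. *Tnfrsf25*, the gene of DR3, had 115 and 140.1 FPKM, a log2 ratio of 0.29 that was -0.05 and -0.20 after the rescalings. As *Ccl17* and *Cxcl9* are also products of dendritic cells and macrophages, 28 markers of such cells were counted. Of these, 8 had values and all 8 were higher by at least 1.5-fold, against 32.1% of all genes. After division by the median ratio 6 of 8 were so, against 17.6% of all genes, and after division by the ratio of sums 4 of 8, against 13.4%. They had a summed mean of 83.6 FPKM in PBS and 184.5 FPKM in α-DR3, and most of it came from *Zbtb46* and *Batf3* in both groups. *Lyz2*, a lysozyme gene of macrophages and neutrophils, had 4.09 and 37.9 FPKM (log2 ratio 2.94), *C1qb* 0.670 and 4.17 FPKM (1.63) and *Cd68* 3.11 and 7.17 FPKM (0.99). For 4 of the 8 the PBS mean was under 1 FPKM, so that they could be listed only with a higher α-DR3 mean. The counts above include these 4. Among the rest, *Lyz2* and *Cd68* were past 1.5-fold after division by the median ratio, and *Lyz2* alone after division by the ratio of sums. *Zbtb46*, a transcription factor gene of dendritic cells, had 42.3 and 71.4 FPKM and *Batf3* 31.9 and 56.4 FPKM. *Itgam*, *Itgax*, *Csf1r* and *Flt3* were not analysed here, and the lineage stain of the sort included CD11b and CD11c, the products of the first pair. The part of such cells in the ligand means was not tested.

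As *Ccl5* is also a product of cytotoxic lymphocytes, 16 markers of T cells, NK cells and ILC1s were counted, a list that includes *Ccl5*. Of 7 with values, 4 were higher and 3 lower, against 54.6% of all genes higher. Without *Ccl5*, 3 of 6 were higher, and the median log2 ratio was 0.07. *Gzma* and *Prf1*, genes of cytotoxic granules, had log2 ratios of 1.82 and 1.33, and *Gzmb* had 528 FPKM in PBS and 962 FPKM in α-DR3. *Ncr1* and *Tbx21*, markers of the NCR+ ILC3s and of ILC1s, were lower, with log2 ratios of -0.72 and -1.23. *Cx3cl1* is known from endothelium, and 12 endothelial and fibroblast markers were looked up. The 5 with values, *Dcn*, *Col3a1*, *Lum*, *Col1a1* and *Col1a2*, are all genes of fibroblasts and matrix, and the endothelial markers were not analysed here. All 5 were higher, against 54.6% of all genes, with a summed mean of 6.58 FPKM in PBS and 16.6 FPKM in α-DR3. For 3 of them, *Lum*, *Col1a1* and *Col1a2*, the PBS mean was under 1 FPKM, so that they could be listed only with a higher α-DR3 mean. At least 1.5-fold higher were 3 of the 5, against 32.1% of all genes. This was 3 of the 5 after division by the median ratio too, against 17.6%, and 1 of the 5 after division by the ratio of sums, against 13.4%. Of *Dcn* and *Col3a1*, whose direction was not fixed in this way, both were past 1.5-fold as deposited and after division by the median ratio. After division by the ratio of sums *Dcn* alone was. Of 9 epithelial markers *Lgals4* was the one with values and was lower, with 12.4 and 5.28 FPKM. Of 10 granulocyte markers it was *Mmp9*, with 11.8 and 15.2 FPKM, a log2 ratio of 0.33 that was -0.13 after division by the ratio of sums. Of 8 ILC2 markers 3 had values. Of these, 2 were higher, against 54.6% of all genes, and 1 was lower. The higher *Il5* had a PBS mean of 0.19 FPKM and could be listed only with a higher α-DR3 mean. The summed mean of the 3 was 7.97 and 14.6 FPKM. The part of these cells in the ligand means was not tested either.

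**Figure D5:**
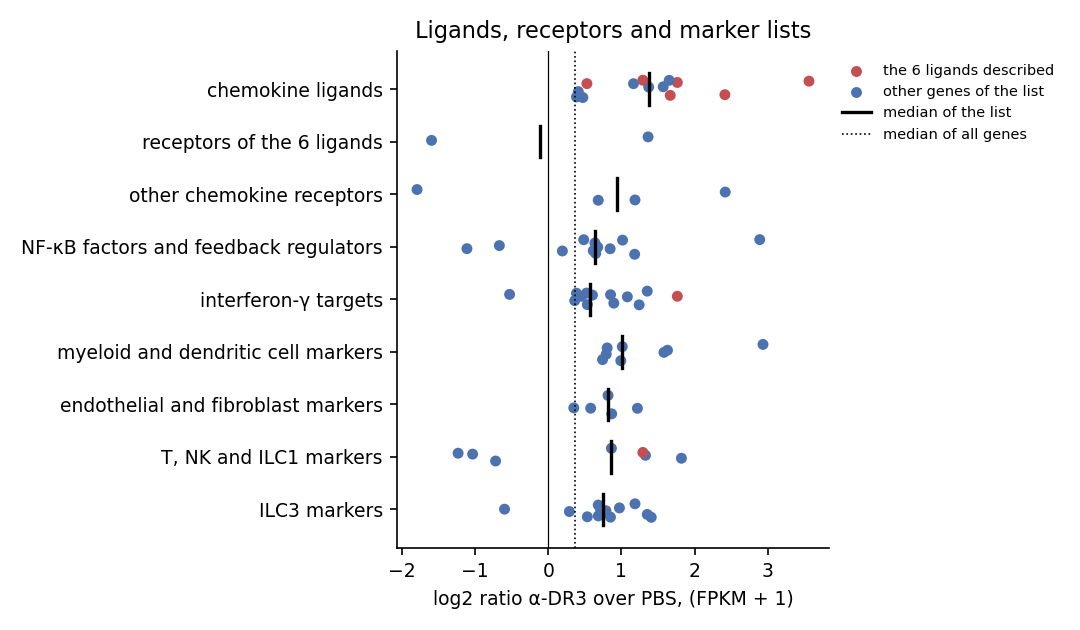
The log2 ratio of (FPKM + 1) in α-DR3 over PBS is plotted for each gene with a value in 9 of the lists, 1 row per list, with the 6 ligands in red, the median of each list as a black bar and the median of all genes, 0.36, as a dotted line. The ligand row, with a median of 1.37, the myeloid row and the fibroblast row lie wholly to the right of 0 as deposited. Each of them holds genes with a PBS mean under 1 FPKM, which could be listed only with a higher α-DR3 mean. The other rows hold points on both sides. After division by the ratio of sums 3 of the 13 ligands lie below 0.

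The genes nearest to each ligand by the distance between their log2(FPKM + 1) values in both groups were also listed, with 2 values per gene behind each distance. *Ccl17* was nearest to *Meox1* (3.08 FPKM in PBS and 31.2 FPKM in α-DR3) and to the cytokine gene *Il1b* (1.64 and 26.9 FPKM). *Ccl1* was nearest to *Wisp2* and to *Il1rn*, the gene of the interleukin-1 receptor antagonist, which had 0.950 FPKM in PBS and 12.0 FPKM in α-DR3. For *Cxcl9* they were *Adamts14* and *Dlc1*, for *Cx3cl1* *Avpi1* was one of them, for *Ccl5* *Ralgds* and *Nupr1*, and for *Ccl3* *Psmb7* and *Vim*. The distance was shortest for *Ccl5* and *Ralgds*, 0.04 on the log2 scale, and longest for *Ccl17* and *Il1b*, 0.54.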

How the data were processed

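RNA of sorted ILC3s was sequenced by the authors as poly(A) libraries, 2 from PBS-treated and 2 from α-DR3-treated mice. Per the submitters' processing notes and the paper's methods, paired-end reads were mapped with STAR 2.5, quantified with RSEM 1.2 on GENCODE M16 (GRCm38.p5) and compared with edgeR 3.18.1. The authors deposited 1 table of 2179 genes. It gives FPKM as means that the authors took within each group, named aDR3 and wt there, and wt was taken as PBS since the series has these 2 groups. Its log2 CPM is the authors' average over all libraries. The deposited p-value was read only to check that each listed gene lies below 0.05. The table also holds the fold changes, test statistics and FDR of the authors' comparison, which were not used. No counts or values of single libraries were used, so depth is unknown and no error, interval or test is given. The means were not rescaled except where a division or rescaling is named.

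Ratios were computed as log2 of (FPKM + 1) in α-DR3 over PBS, with a limit of 1.5-fold, and as plain ratios of means where a fold is named. The calculation was run on simulated means with planted folds and no noise, which checks the code only. Coordinates, transcripts and coding stretches came from GENCODE M21 on GRCm38, the authors' build, and upstream sequence from RefSeq. Genes named are the 6 ligands, all listed ligands and receptors, up to 4 of the highest level and 2 of the largest ratio in each other list, the 2 nearest genes of each ligand, and *Tnfrsf25* as the target, which was added after its values were seen. Some genes and sequences that the rule takes in are not reported here. The ligands and lists were chosen with earlier results of these data known. Alternatives were pseudocounts of 0, 0.1 and 5, division of the α-DR3 means by the median ratio or the ratio of sums, a 2-fold limit, filters on FPKM, and CPM in place of FPKM. Python 3.11.15, numpy 2.4.6, pandas 2.3.3 and matplotlib 3.10.9 were used.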

Additional observations from a re-analysis of the deposited data

How the results depend on the processing

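With pseudocounts of 0, 0.1 or 5 in place of 1, with both rescalings of the α-DR3 means and with a 2-fold limit, 5 of the 6 ligands were past the limit. With a 2-fold limit 13.3% of all genes were past it. Over these pseudocounts and rescalings the log2 ratio was between 2.54 and 4.06 for *Ccl17*, 1.33 and 3.19 for *Ccl1*, 1.08 and 2.12 for *Cxcl9*, 1.18 and 1.69 for *Cx3cl1*, 0.82 and 1.38 for *Ccl5*, and 0.04 and 0.53 for *Ccl3*. The share of all genes higher by at least 1.5-fold was 37.1% and 36.8% with pseudocounts of 0 and 0.1, 28.8% and 27.7% among genes over 5 FPKM in either group or over 1 FPKM in both, 16.7% with a pseudocount of 5, 17.6% after division by the median ratio of 1.26 and 13.4% after division by the ratio of sums of 1.41. These divisions, chosen on genes that the authors had selected, lowered the median log2 ratio of all genes by 0.32 and 0.46, and of the genes past 1.5-fold 51.3% were higher as deposited, against 28.6% and 22.9% after them. After division by the ratio of sums the log2 ratio was -0.021 for *Cxcl2*, -0.049 for *Cxcl16* and -0.11 for *Cxcl10*. In CPM in place of FPKM, 1 of the 6 ligands kept its place in the order of levels, because fragments are then not divided by length. The shares with other pseudocounts or rescaling and the rescaled ratios of other ligands, receptors and lists were added after seeing the data. No paired analysis was possible because the columns used here are group means and carry no replicate number. Leaving out a library was not run, since values of single libraries were not used.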
